A study of Mus musculus with 12 samples.

Results

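The bins described here carried the signal of an antibody against GZF1 in wild-type cells of both mouse embryonic stem cell lines. The anti-FLAG signal of tagged GZF1 stayed below a set limit over its surroundings there, though in most of these bins it was weakly above them. GZF1 is a DNA-binding protein with a BTB domain and zinc fingers. A bin was 1 kb of an autosome, its read density was its reads divided by the autosomal mean of the same library, and L was log2((density + 0.5)/(local density + 0.5)), with the local density the median of the 10 bins on each side. Members had an L of 1 or more in both wild-type anti-GZF1 libraries and below 0.5 in both anti-FLAG libraries. They numbered 106 of 2462755 autosomal bins (0.0043%), and 106 of the 9365 bins (1.13%) that reached an L of 1 with anti-GZF1 in both lines. The number depended on the pseudocount of 0.5: 431 bins met the rule with 0.25 and 27 with 1, and 49 and 10 of these were among the 106. An L of 1 or more was held by 0.482% of all autosomal bins in Cas9 wild type and 2.32% in RGM wild type, and with anti-FLAG by 0.231% in Cas9 and 0.529% in RGM. The members were chosen by L in these 4 libraries, so their values there are a description, carry no test and support nothing.

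All 8 libraries came from formaldehyde-fixed chromatin cut with micrococcal nuclease. Cas9 (Cas9-GFP embryonic stem cells) contributed wild type with anti-GZF1, Gzf1-Flag overexpression clone 35 with anti-FLAG M2, the Gzf1 knockout with anti-GZF1, a control with anti-GZF1, wild type with anti-H3K27ac, and input. RGM, a 129xCAST line, contributed wild type with anti-GZF1 and Gzf1-Flag overexpression clone 56 with anti-FLAG M2. Each tagged library came from 1 clone with ectopic Gzf1-Flag, whose promoter the labels do not give, and the labels do not say what was done to the control. Each library was the only one of its kind, so nothing below is a test between conditions, and intervals are 95% and cover counting error only. The remaining 4 libraries of the series, among them the anti-FLAG libraries without Gzf1-Flag, were not analysed here. Depth ran from 10087804 reads in the input and 21824176 in RGM wild type to 94184865 in the control, and a density of 1 stood for 23.6 reads in Cas9 wild type, 8.61 in RGM wild type and 3.93 in the input. A gene end, here and below, is either boundary of an annotated gene, its start or its finish. H3K27ac density at gene ends of embryonic stem cell markers was 1.13 (Dppa5a) to 4.19 (Klf4), with 3.53 at Pou5f1. At fibroblast markers it was 1.21 (Col1a2) to 3.13 (Thy1), so the ranges overlapped and this mark did not tell the 2 lists apart.

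GZF1 was first described as a factor induced by GDNF, and it binds DNA through its zinc fingers at a site that begins with TGCGC and ends with TATA after 3 variable bases. At imprinted loci zinc-finger proteins such as ZFP57 recognise a methylated core, TGCCGC, and help to keep the methylation of a parental allele. An antibody against the protein itself is meant to read the endogenous protein, and anti-FLAG only the tagged copy. How specific either antibody was in these libraries was not tested. H3K27ac marks active promoters and enhancers, and input is chromatin that met no antibody.

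Sequence was at hand for promoters (RefSeq, GRCm38.p6, 250 bases before to 50 after a gene start), and 22 promoters of 19 genes started in 17 members. The 6 shown here belong to the 4 highest such members that lie at a protein-coding gene (Zfand2a, Mcm8, Ror2 and Med6), to Coq8a, which held the most TGCGC of the 22, and to Abt1, the member with the highest ratio of knockout to control described below. Zfand2a (chr5:139484442-139484741, minus strand) encodes a stress-induced zinc-finger partner of the proteasome, and Mcm8 (chr2:132815891-132816190, plus strand) a helicase of DNA repair. Ror2 (chr13:53286075-53286374, minus strand) encodes a Wnt receptor kinase, and Med6 (chr12:81594959-81595258, minus strand) a subunit of the Mediator complex. Coq8a (chr1:180195971-180196270, minus strand) encodes a coenzyme Q factor, and Abt1 (chr13:23423817-23424116, minus strand) an activator of basal transcription. Capitals mark TGCGC on either strand.
Zfand2a: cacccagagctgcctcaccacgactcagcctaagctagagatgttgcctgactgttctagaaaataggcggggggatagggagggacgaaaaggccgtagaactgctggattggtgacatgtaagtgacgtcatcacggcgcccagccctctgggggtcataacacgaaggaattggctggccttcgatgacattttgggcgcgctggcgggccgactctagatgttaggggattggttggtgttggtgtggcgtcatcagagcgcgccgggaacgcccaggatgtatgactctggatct
Mcm8: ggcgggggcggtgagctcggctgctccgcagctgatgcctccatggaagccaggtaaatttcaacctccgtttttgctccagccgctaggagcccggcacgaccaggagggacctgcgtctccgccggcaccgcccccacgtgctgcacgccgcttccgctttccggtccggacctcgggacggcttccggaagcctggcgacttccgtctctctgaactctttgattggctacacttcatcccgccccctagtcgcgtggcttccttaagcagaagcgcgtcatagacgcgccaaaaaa
Ror2: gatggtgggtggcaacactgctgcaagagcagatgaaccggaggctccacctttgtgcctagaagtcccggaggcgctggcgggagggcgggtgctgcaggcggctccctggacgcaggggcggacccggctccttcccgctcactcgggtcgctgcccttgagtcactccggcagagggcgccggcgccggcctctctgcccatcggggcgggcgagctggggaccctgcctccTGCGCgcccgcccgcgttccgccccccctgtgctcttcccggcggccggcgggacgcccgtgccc
Med6: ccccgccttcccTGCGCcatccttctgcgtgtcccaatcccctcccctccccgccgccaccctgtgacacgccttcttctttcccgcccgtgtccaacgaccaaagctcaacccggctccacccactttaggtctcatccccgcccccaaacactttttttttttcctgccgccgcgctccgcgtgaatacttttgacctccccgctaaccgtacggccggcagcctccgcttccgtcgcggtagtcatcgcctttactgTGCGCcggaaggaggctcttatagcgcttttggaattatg
Coq8a: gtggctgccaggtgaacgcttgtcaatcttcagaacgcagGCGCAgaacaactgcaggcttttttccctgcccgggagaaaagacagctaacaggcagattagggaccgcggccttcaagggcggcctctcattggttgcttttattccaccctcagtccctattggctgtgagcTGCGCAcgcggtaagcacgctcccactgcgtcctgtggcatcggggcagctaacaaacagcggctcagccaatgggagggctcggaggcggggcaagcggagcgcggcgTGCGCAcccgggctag
Abt1: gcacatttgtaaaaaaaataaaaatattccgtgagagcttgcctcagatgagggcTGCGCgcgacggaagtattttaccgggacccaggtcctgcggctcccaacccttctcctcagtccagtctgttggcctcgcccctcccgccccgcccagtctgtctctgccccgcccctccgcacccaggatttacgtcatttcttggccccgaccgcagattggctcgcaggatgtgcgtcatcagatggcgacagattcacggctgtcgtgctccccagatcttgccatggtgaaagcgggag

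The members' promoters were CpG-rich like those of other anti-GZF1 bins, and held less G+C. CpG was at 0.6 or more of its expected frequency in 20 of the 22 (90.9%), in 1518 of 1699 promoters (89.3%) in bins raised with both antibodies in both lines, and in 36.4% of all 31396 promoters. Their median G+C was 58.2% (quartiles 53.6% to 63.2%), against 67.0% (62.0% to 71.7%) with both antibodies and 53.0% over all promoters. TGCGC on either strand was in 9 of 22 (40.9%), in 67.9% with both antibodies and in 30.6% of all promoters. The longer form, TGCGC with TATA 3 bases after it, was in 0 of 22, 0 of 1699 and 4 of all 31396 promoters. TGCCGC was in 3 of 22 (13.6%), 27.9% and 11.6%. The printed Med6 promoter held 2 matches of TGCGC, Coq8a held 5, Ror2 and Abt1 held 1 each, and Zfand2a and Mcm8 held 0. A match is a description of the letters, and bins without a gene start could not be read.

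Among the bins raised with anti-GZF1 in both lines, the 106 were the low end of a single continuous spread of anti-FLAG values. The higher of the 2 anti-FLAG values was from 0.5 to 1 in 2401 of the 9365 bins (25.6%), from 1 to 1.5 in 5406 (57.7%) and 1.5 or more in 1452 (15.5%). With anti-FLAG, the median L of the members was 0.37 in Cas9 (−0.26 to 0.50) and 0.35 in RGM (−0.20 to 0.50), with 97 of 106 above 0 in each line. The counting interval of the anti-FLAG density lay above the local density in 53 of 106 in each line. The higher of the 2 was at 0.25 or more in 91 of them. The 3 members nearest the anti-FLAG limit had 0.4991 (Gm39145), 0.4979 (Arhgap24) and 0.4973 (Cacng2), and the 3 bins just past it had 0.5019 (Elfn1), 0.5021 (Mir137) and 0.5041 (chromosome 3, 131084001 to 131085000).

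**Figure D1:**
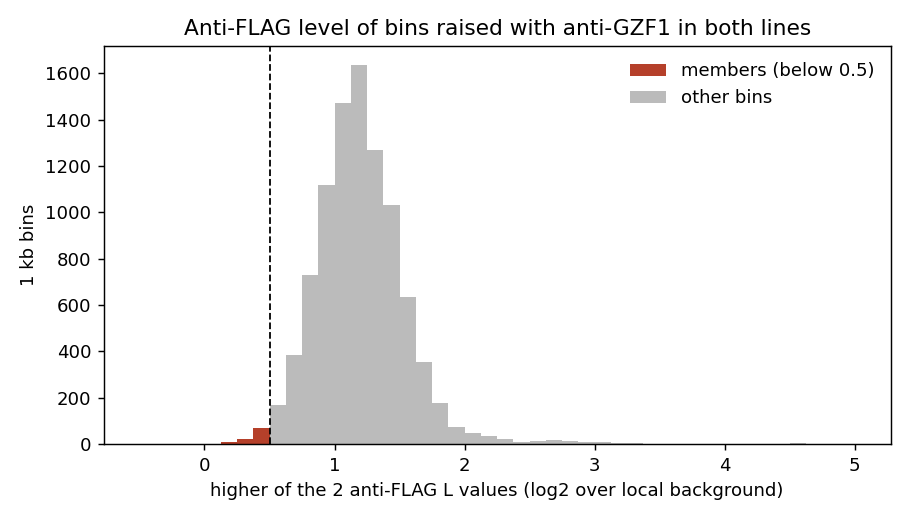
Number of 1 kb bins (vertical axis) by the higher of their 2 anti-FLAG L values (horizontal axis, log2 over local background), for the 9365 bins with an anti-GZF1 L of 1 or more in both lines. The 106 members (red) lie left of the dashed line at 0.5, at the lower edge of a distribution with 1 peak.

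Wild-type anti-GZF1 was only a little past its own limit in most members. The median L was 1.07 in Cas9 (1.00 to 1.79) and 1.26 in RGM (1.00 to 1.93), and 91 of 106 were higher in RGM. The bins raised with both antibodies in both lines (2447 bins with all 4 values at 1 or more) had medians of 1.39 and 1.93. Members held 13.5 to 160 reads in Cas9 wild type (median 58.1) and 4.5 to 73 in RGM wild type (median 22.6). Density with anti-GZF1 was a median 1.87 times that with anti-FLAG in Cas9 (1.05 to 4.47) and 2.09 times in RGM (1.20 to 9.22), a direction that the choice of members sets. The 3 lowest members had a lower wild-type L of 1.0003 (Olfr1083-ps), 1.0013 (Pvr) and 1.0019 (chromosome 13, 118531001 to 118532000), and the 3 bins just below the limit had 0.9976 (Sf3b4), 0.9962 (Slc25a36) and 0.9951 (chromosome 16, 79660001 to 79661000). Counting error therefore reaches across both limits. With each count at its lower bound 10 members kept an L of 1 in Cas9, 15 in RGM and 4 in both, with each anti-FLAG count at its upper bound 18 stayed below 0.5 in Cas9, 13 in RGM and 3 in both, and 0 members passed all 4 at once.

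The member highest with anti-GZF1 had no gene end within 5 kb (chromosome 18, 76694001 to 76695000, mm10) and lay outside annotated genes. With anti-GZF1, 94.75 reads of Cas9 wild type gave a density of 4.02 (3.25 to 4.91) and 31 reads of RGM wild type one of 3.60 (2.45 to 5.11). Anti-FLAG density there was 0.899 (0.579 to 1.33) in Cas9 and 1.34 (0.935 to 1.86) in RGM. Knockout and control stood at 1.16 (0.824 to 1.59) and 0.935 (0.646 to 1.31), H3K27ac at 0.693 and the input at 0.509 from 2 reads. Both wild types stood at 3.88 times their local density or more, and the other 6 libraries at 0.4 to 1.41 times. It was the 1 member left when the anti-GZF1 limit was set at 1.5.

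Zfand2a, Mrpl4 and H2-Q5 were the others that kept an L of 1 at the lower bound in both wild types. The Zfand2a start (chromosome 5, 139484001 to 139485000) had the highest read density of the wild types, where 160 Cas9 reads gave 6.78 (5.77 to 7.92) and 73 RGM reads gave 8.48 (6.65 to 10.7). Its anti-FLAG density was 2.72 in Cas9 and 3.22 in RGM, and it was 2.59 (2.07 to 3.21) in the knockout, 2.89 (2.36 to 3.50) in the control, 3.28 for H3K27ac and 3.72 in the input. Every library was above its local density at Zfand2a, by 1.38 times (anti-FLAG in Cas9) to 4.56 times (RGM wild type). Mrpl4 encodes a protein of the mitochondrial ribosome. Its bin (chromosome 9, 21002001 to 21003000) lay inside the gene, 749 bases from a gene end. The bin had densities of 4.87 (4.02 to 5.85) in Cas9 wild type and 7.10 (5.43 to 9.11) in RGM wild type. Its values were 1.73 and 2.48 with anti-FLAG in Cas9 and RGM, 2.11 in the knockout, 1.67 in the control, 2.81 for H3K27ac and 0.255 (0.00645 to 1.42) in the input from 1 read. H2-Q5, a transcribed pseudogene of the class I histocompatibility cluster (chromosome 17, 35394001 to 35395000), had densities of 1.79 and 1.86 with anti-GZF1 in Cas9 and RGM wild type, which were 5.30 and 8.0 times the local density. Anti-FLAG there was 1.61 and 1.60 times local. The knockout stood at 1.1 times, the control at 0.94, H3K27ac at 1.53 and the input, from 7 reads, at 4.67.

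The starts of Mcm8, Ror2, Med6 and Arfgap2 were also among the 20 highest members. Mcm8 shares its bin with Trmt6, which encodes a subunit of a tRNA methyltransferase, and had densities of 3.34 and 3.09 with anti-GZF1 in Cas9 and RGM wild type, against 1.42 and 1.85 with anti-FLAG. Ror2 shares its bin with the non-coding Gm33574 and had 3.58 and 4.0, against 1.75 and 2.51. Med6 had 3.43 and 3.81, against 1.80 and 1.91, and the knockout (2.52) and the control (2.80) were raised there too. Arfgap2, an ARF GTPase activator gene, had 3.51 and 4.95, against 1.98 and 2.69. The knockout and the control were at 1.19 and 1.59 at Mcm8, 1.03 and 0.951 at Ror2, and 1.98 and 2.21 at Arfgap2. H3K27ac and the input had 2.43 and 1.78 at Mcm8, 2.10 and 2.38 at Ror2, 1.96 and 2.15 at Med6, and 2.15 and 3.31 at Arfgap2.

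The others of the 20 with a gene lay at zinc-finger genes, other multigene families or predicted genes. Over all members, 0.451% of zinc-finger genes (2 of 443) and 0.0489% of olfactory and vomeronasal receptor genes had a member within 5 kb. The share was 0.13% of predicted genes and cDNA clones and 0.198% of all autosomal genes. These families are therefore not read as a trait of the members. The genes Zfp866, Zfp825 and Zfp993 encode zinc-finger proteins. A bin 2090 bases from Zfp866 had an anti-GZF1 density of 4.37 in Cas9 and 3.75 in RGM wild type, Zfp825 had 2.54 and 2.53, and the inside of Zfp993 had 1.62 and 1.05. Inside the pheromone receptor gene Vmn2r20, which overlaps the pseudogene Gm18375, 22 and 8 reads gave 0.933 and 0.929. Duxf3 is a homeobox gene of a repeated array that is active in early cleavage embryos. Its bin, 1089 bases from a gene end, had 2.40 and 2.73, with 5.14 in the knockout and 5.18 in the control. A bin 90 bases from the pseudogene Gm11841 had 3.39 and 1.97, and the predicted coding gene Gm33887 1.57 and 1.93. How reads were shared among near-identical copies is not given in the sources used here, so these values are uncertain. The remaining 5 of the 20 had no gene within 5 kb and lay on chromosomes 10, 9, 9, 5 and 6, with 28 to 45.35 reads in Cas9 wild type and 6 to 14.5 in RGM wild type.

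**Figure D2:**
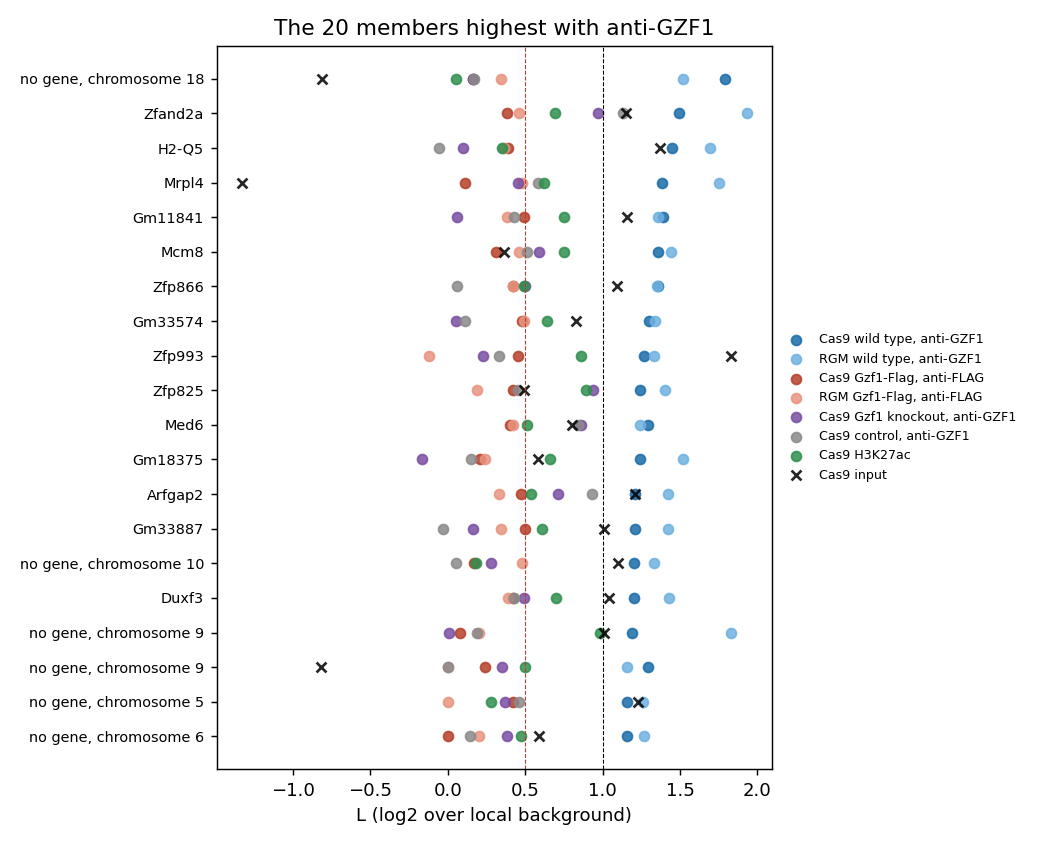
L (horizontal axis, log2 over local background) in each of the 8 libraries for the 20 members with the highest lower wild-type value, 1 member a row. Both wild-type anti-GZF1 values (blue) lie right of the dashed line at 1 and both anti-FLAG values (red) left of 0.5 by the rule, while the input (crosses; the row Gm33574 is the Ror2 bin, and Gm18375 the Vmn2r20 bin) ranges from −1.33 at Mrpl4 to 1.83 at Zfp993.

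The knockout and the control used the same antibody and took no part in the choice of members. The median L over the 106 members was 0.24 in the knockout (−0.46 to 1.27) and 0.26 in the control (−0.51 to 1.13), and values above 0 numbered 83 and 87. An L of 1 or more was reached by 1 member in the knockout (0.943%, 95% exact binomial interval 0.0239% to 5.14%) and 1 in the control (0.943%), against 0.045% and 0.0398% of all autosomal bins. In the knockout it was a bin inside Abcb8, a mitochondrial transporter gene, 320 bases from a gene end (1.27, with 0.94 in the control). In the control it was Zfand2a (1.13, with 0.97 in the knockout). Next highest in the control were Abcb8, Arfgap2 (0.93), the shared start of Nubp2 and Spsb3 (0.86), and Med6 (0.84). Density in Cas9 wild type was a median 1.85 times that of the control, a value that the choice of members for a high wild-type L raises by itself. Bins raised with both antibodies, which also had higher wild-type L, had medians of 0.51 in the knockout and 0.53 in the control. Of these, 8.01% and 8.38% reached 1. Among anti-GZF1 bins with a higher anti-FLAG value of 0.5 to 1 the shares were 2.21% and 1.79%. With a lower wild-type L under 1.1 they were 1.35% and 0.0% of 74 members, and 1.66% and 1.57% of 1146 such bins. The low shares are therefore not read as a trait of the members. The labels do not say how the control differs from the wild type, and its part in these values was not tested. Coverage in the knockout and the control also differed from that of the other libraries. In 29 members with a local density under 0.3 in 1 or both wild types, their median local density was 0.876 and 0.856. In the other libraries it was 0.134 to 0.441 there. L in the knockout and the control is therefore not directly comparable with wild-type L.

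Knockout and control did not differ over the members as a set beyond counting error. The 6592 reads of the knockout and 6951 of the control gave a density ratio of 1.03 (0.996 to 1.07), and of 0.979 (0.946 to 1.01) relative to the same ratio in the 10 bins on each side. Over bins raised with both antibodies the ratio relative to the flanks was 0.994 (0.988 to 1.00). L was higher in the knockout in 50 of 106 members. Leaving out the 4 members with a control density over 3 gave 0.979 (0.940 to 1.02). The same limit gave 0.984 (0.977 to 0.991) over bins raised with both antibodies, near the value of the members. The 17 members with a promoter start had 0.905 (0.831 to 0.987), and the 1272 both-antibody bins with one had 0.981 (0.972 to 0.990). The 43 members with a gene end within 5 kb but no promoter start had 1.02 (0.959 to 1.08). The 46 without a gene end within 5 kb had 0.979 (0.934 to 1.03). The promoter subset was 1 of several looked at, so its value is not read as a loss at promoters.

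Few single members differed between knockout and control. The counting interval of the knockout to control ratio, relative to the flanks, lay below 1 in 3 members (2.83%) and above 1 in 5 (4.72%), against 5.79% and 5.81% of the 2395289 autosomal bins with 20 or more reads in both together. The lowest lay on chromosome 2 (96430001 to 96431000) inside Lrrc4c, which encodes a synaptic adhesion protein, where 16 reads of the knockout against 33.5 of the control gave a ratio of 0.501 (0.254 to 0.918). A bin on chromosome 16 (29907001 to 29908000) had 0.549 (0.349 to 0.867), Fbxl4, which encodes an F-box protein of mitophagy, 0.577 (0.352 to 0.923), Man1a, a mannosidase gene of the Golgi, 0.632 (0.377 to 1.05), and a bin on chromosome 9 (81057001 to 81058000) 0.666 (0.388 to 1.08). The highest was Abt1, where 58.85 reads of the knockout against 32.5 of the control gave 1.90 (1.24 to 3.08). After it came bins on chromosome 1 (33061001 to 33062000) at 1.86 (1.03 to 3.36), by the pseudogene Gm6554 at 1.74 (0.868 to 3.35), at Zfp825 at 1.64 (1.18 to 2.33) and on chromosome 12 (55917001 to 55918000) at 1.54 (1.04 to 2.32). The bin by Zfp866, at 1.47 (1.02 to 2.16), was the fifth with an interval above 1. Both shares lie below those of all bins, so the named bins are described as the ends of the spread.

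**Figure D3:**
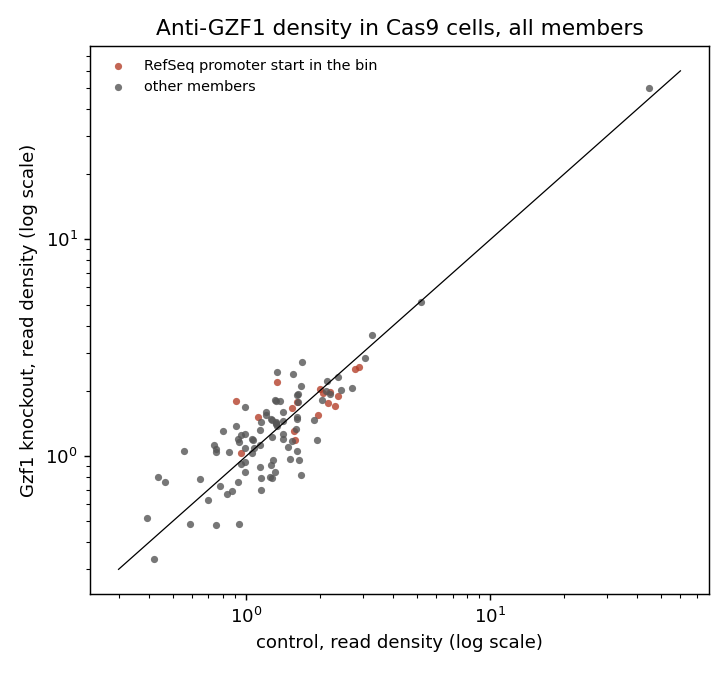
Anti-GZF1 read density in the Gzf1 knockout (vertical axis) and in the control (horizontal axis) for the 106 members, both on log scales and relative to the autosomal mean, with the line of equal density. Members with a RefSeq promoter start (red) and the others (grey) lie along the line, and the point at the upper right is a bin on chromosome 9 with 1647.5 knockout and 1593.65 control reads.

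H3K27ac reached an L of 1 at few members, unlike other bins raised with anti-GZF1. Most members were still weakly above their surroundings in H3K27ac. Its median L was 0.56 (−0.42 to 1.39), 98 of 106 were above 0, and 70 had a counting interval above the local density. The level of 1 was reached by 2 members (1.89%, 0.229% to 6.65%), against 1821 of 2447 bins (74.4%) raised with both antibodies and 0.545% of all autosomal bins. With a pseudocount of 0.25, which gave 431 members, the share was 12.5%. The higher of the 2 lay inside Hbs1l, a ribosome rescue factor gene, 22 bases from a gene end, at 1.39 from 68.7 reads. The other lay inside Pvr, a gene of a nectin-like adhesion molecule, 143 bases from a gene end, at 1.28 from 87.15 reads. Rad51d, a recombination repair gene, and Mrps25, a mitochondrial ribosomal protein gene, both had 0.99, and a bin without a gene on chromosome 9 (91627001 to 91628000) 0.98 from 18 reads. The shares differed in the same direction among bins of a like wild-type level. Of those with a lower wild-type L under 1.1, H3K27ac reached 1 in 2.70% of 74 members, 26.5% of 1146 bins with a higher anti-FLAG value of 0.5 to 1, 43.3% of 1239 with 1 to 1.5 and 47.7% of 86 above that. Other values moved along these 4 classes. The median RGM wild-type L was 1.17, 1.34, 1.58 and 1.66, and the median local density in Cas9 wild type 0.909, 1.40, 1.42 and 1.27. A promoter start was in 15.1%, 41.9%, 51.3% and 36.9%, and a gene end within 5 kb in 52.7%, 81.8%, 84.1% and 62.8%. Their part in the difference was not tested, nor was that of the rule, which holds both anti-FLAG values below 0.5.

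The input was above its surroundings at most members as well. Its median L was 0.63 (−1.75 to 2.15), higher than that of H3K27ac and of anti-FLAG, and 83 of 106 were above 0. It reached 1 in 32 members (30.2%, 21.7% to 39.9%), in 58.6% of bins raised with both antibodies and in 7.48% of all autosomal bins. Among anti-GZF1 bins with a higher anti-FLAG value of 0.5 to 1 the share was 30.8% of 2401, near that of the members. With a lower wild-type L under 1.1 it was 28.4% of 74 members and 27.1% of 1146 such bins. The input share is therefore not read as a trait of the members. In 68 members the input stood above both anti-FLAG values, and in 22 it was at or above the lower wild-type value. The rule holds both anti-FLAG values below 0.5, so the choice of members by itself favours a higher input. This applies to the 68 and to the medians. The highest were a bin without a gene on chromosome 5 (149298001 to 149299000) at 2.15 from 9 reads, a bin 4962 bases from Clec4b1, a lectin receptor gene, at 2.01 from 12 reads, Zfp993 and the inside of Itgbl1 at 1.83 from 10.35 and 5 reads, and a bin on chromosome 15 (39704001 to 39705000) at 1.75 from 8 reads. The median was 5.18 reads, 6 members had 0 reads, for which the limit of 3 reads is a density of 0.764 and the upper bound of the Poisson interval 0.94, and 39 had a counting interval above the local density. There was 1 input library, of Cas9, and the part of unbound chromatin in the anti-GZF1 signal was not tested.

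**Figure D4:**
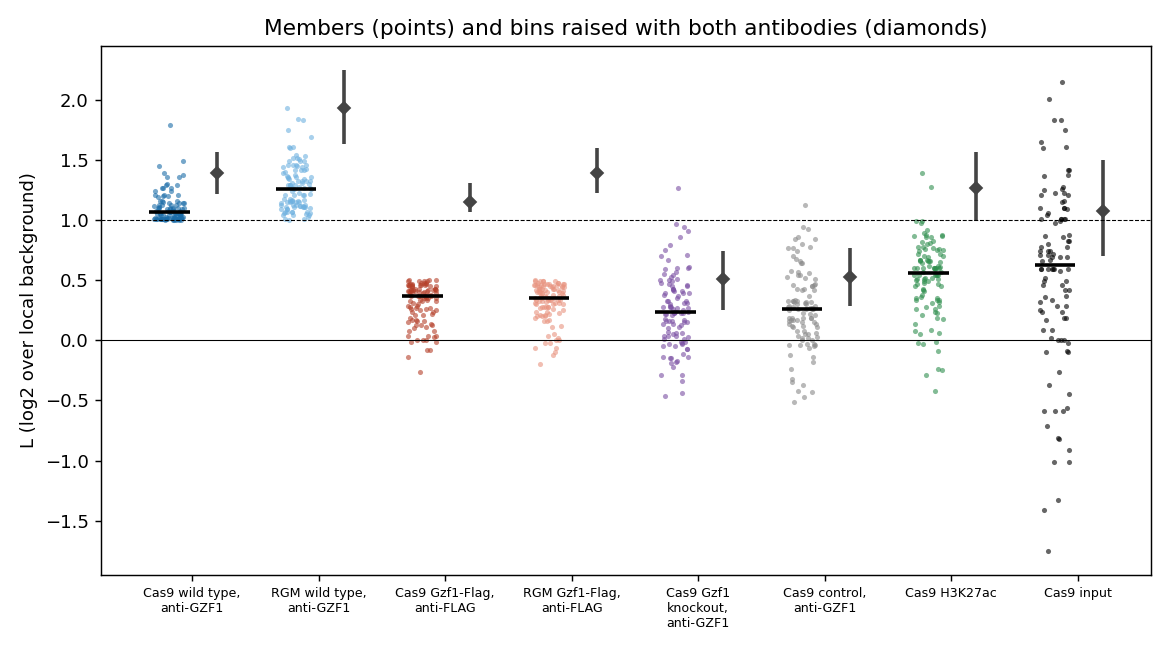
L (vertical axis, log2 over local background) in each library for the 106 members (points, black bar at the median) beside the median and quartiles of the 2447 bins raised with both antibodies (diamonds and lines), with dashes at 1. Member medians lie below the diamonds in every library, and in the input single members spread from −1.75 to 2.15.

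Wild-type anti-GZF1 fell off within 2 kb, while the input and H3K27ac kept more of their central value beside the bin. Members were chosen for a high wild-type anti-GZF1 value in the central bin, and not for input or H3K27ac. The choice by itself therefore steepens the anti-GZF1 fall, and the contrast is a description only. In the bins next to a member the median L relative to the member's local density was 0.41 on the lower and 0.20 on the higher coordinate side in Cas9 wild type, and 0.45 and 0.27 in RGM wild type. It was at 0.15 or less 2 kb away in both. The input had 0.63 in the bin itself, 0.42 and 0.36 beside it and 0.24 at 2 kb on the lower side. H3K27ac had 0.56 in the bin, 0.34 and 0.22 beside it and 0.20 at 2 kb on the lower side, and anti-FLAG in Cas9 had 0.37 in the bin with 0.21 and 0.10 beside it. A neighbouring bin with a lower wild-type L of 0.5 or more stood beside 45 of 106, a count not made for other bins. Beside bins raised with both antibodies the medians were higher, 0.541 and 0.539 in Cas9 wild type and 0.707 and 0.723 in RGM wild type. Members did not cluster: merging bins at most 1 kb apart left 106 regions, the closest pair started 140 kb apart and 5 pairs lay within 1000 kb.

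**Figure D5:**
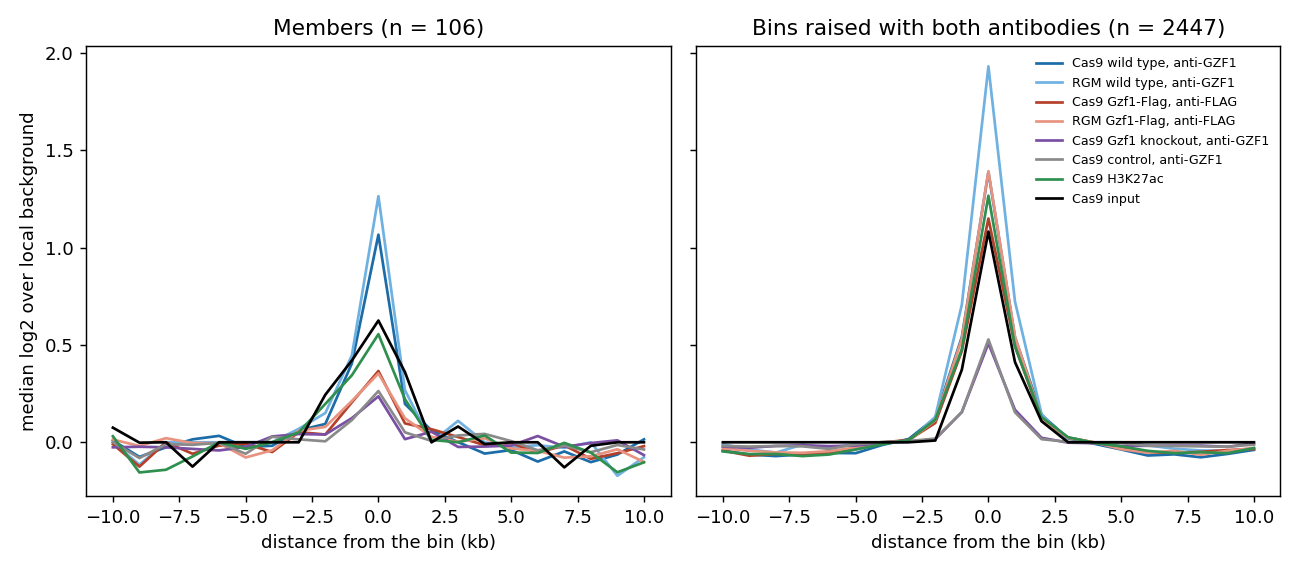
Median log2 density over the local density of the central bin (vertical axis) by distance from it (horizontal axis, kb), for the members on the left and the bins raised with both antibodies on the right, 1 line per library. At the members the wild-type anti-GZF1 lines (blue) peak at 1.07 and 1.26, with the input (0.63) and H3K27ac (0.56) above anti-FLAG (0.37 and 0.35). On the right all wild-type and tagged lines exceed 1, and so do H3K27ac (1.27) and the input (1.08). The choice of bins sets the central wild-type and anti-FLAG values on both sides.

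Gene starts, and gene ends of either kind, were less common among the members than among bins raised with both antibodies. A RefSeq promoter start was in 17 of 104 members (16.3%, 9.82% to 24.9%; chromosome 18 was left out of this count), in 1272 of 2375 bins (53.6%) raised with both antibodies and in 1.16% of all bins. A gene end lay within 5 kb of 60 members (56.6%), 81.0% and 25.1%, within 1 kb of 43 (40.6%), 73.3% and 8.9%, and in the bin itself in 29 (27.4%), 56.8% and 3.37%. Another 17 (16%) were inside a gene only, against 8.01% and 33.8%, and 29 (27.4%) were neither, against 11% and 41.1%. The nearest end within 5 kb was of a protein-coding gene in 43 members, of a long non-coding RNA gene in 7, of a pseudogene in 7, of a transcribed pseudogene in 1 and of a V segment in 2. The share within 5 kb depended on the settings and ran from 26.7% with an anti-FLAG limit of 0.25 to 88.9% with a pseudocount of 1.

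Members at promoters lay in denser surroundings than those away from genes. The 17 with a promoter start had a median local density of 1.43 in Cas9 wild type and 1.51 in RGM wild type, against 0.527 and 0.359 in the 46 members without a gene end within 5 kb. The median anti-GZF1 L was 1.08 and 1.34 at promoters and 1.05 and 1.21 in those 46. Knockout and control medians were 0.53 and 0.54 at promoters, and 0.23 and 0.19 in the 46. H3K27ac was at 0.64 and 0.53, and the input at 0.36 and 0.69. In 29 members the local density was under 0.3 in 1 or both wild types. Their median was 28.9 reads in Cas9 and 10 in RGM wild type, 14 of them reached an L of 1 in the input, and 0 held a promoter start. The other 77 had 71.2 and 29 reads, with 18 at 1 in the input.

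Members inside a gene only, away from its ends, lay in 17 loci that included Ank2, an ankyrin gene, Grid1, a glutamate receptor gene, Opcml and Lrrc4c, genes of neural cell adhesion, Camta1, a transcription factor gene, Lef1, a transcription factor gene of Wnt signalling, and the receptor kinase gene Ros1. Lef1 had an anti-GZF1 L of 1.03 in Cas9 wild type and 1.07 in RGM wild type, against 0.13 and 0.20 with anti-FLAG. Wnt3a, which encodes a Wnt ligand, had 1.04 and 1.17 (965 bases from a gene end), against 0.47 and 0.30. Apart from Lrrc4c, these genes were named after their values were seen and were drawn from no list.

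Few genes of the chosen lists had a member within 5 kb, where 93 of 47042 autosomal genes (0.198%) did and 2829 (6.01%) had a bin raised with both antibodies. Of the 46 imprinted genes 1 had a member, Magel2, a gene of the Prader-Willi region (chromosome 7, 62378001 to 62379000). The bin lies 1022 bases from an end of Magel2. Its 75.65 anti-GZF1 reads of Cas9 wild type gave a density of 3.21 (2.53 to 4.02) and 32.95 of RGM wild type 3.83 (2.63 to 5.38), against 2.0 and 1.56 with anti-FLAG, 1.09 in the knockout, 1.08 in the control, 1.82 for H3K27ac and 1.78 in the input. Of 75 mitochondrial ribosomal protein genes 2 had one, Mrpl4 and Mrps25, of 443 zinc-finger genes 2, Zfp825 and Zfp866, and of 2043 olfactory and vomeronasal receptor genes 1, Olfr1083-ps. Predicted genes and cDNA clones had 29 of 22343 (0.13%). Genes of pluripotency (0 of 20), methylation and imprint maintenance (0 of 17), germline genes with methylated promoters (0 of 17), GDNF and RET signalling (0 of 23), bivalent developmental regulators (0 of 30), protein synthesis (0 of 26), histones (0 of 87), microRNAs (0 of 1108), ribosomal proteins (0 of 382), embryonic stem cell markers (0 of 8) and fibroblast markers (0 of 6) had none. At a background of 0.198% these empty lists are not read as a result.

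By chromosome, members numbered 13 on chromosome 5, 12 on chromosome 9 and 10 on chromosome 2, and 0 on chromosome 19, where 71 bins were raised with both antibodies. Per 10000 bins chromosome 9 had 0.963, chromosome 5 had 0.856 and chromosome 13 had 0.664, against 0.206 on chromosome 7 and 0.192 on chromosome 15. One of the chromosome 9 members (3017001 to 3018000) had densities of 1.99 and 4.06 with anti-GZF1 in Cas9 and RGM wild type. It held 1647.5 reads in the knockout and 1593.65 in the control, at 1.03 and 1.04 times local.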

How the data were processed

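Chromatin immunoprecipitation libraries were analysed from 1 table of 1 kb bins. The authors deposited estimated counts, unscaled for depth: 99.9963% of the values were multiples of 0.05. Per the submitters' processing notes, cutadapt, Bowtie2 2.5.4, SAMtools and deepTools were used with mm10. Rules for duplicate or low-quality alignments are not given in the sources used here. The file's chromosome index was not a measurement.

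Densities divide reads by the library's mean over 2462755 bins of 19 autosomes. The 95% intervals are exact Poisson for reads and Clopper-Pearson for shares and for ratios, with rounded reads; 0 reads allow up to 3. A ratio relative to flanks takes the flanks as free of error. Gene positions are from RefSeq GRCm38.p6, without exon structure. Named were the 20 members highest with anti-GZF1, 5 at each end of knockout over control, 5 highest in H3K27ac, control and input, 3 bins on each side of the limits, and list genes; Coq8a, Ank2, Grid1, Opcml, Camta1, Lef1, Ros1 and Wnt3a were chosen after their values were seen. Members and lists were chosen with earlier results of these data known. The method was run on simulated counts, with wild-type rises planted at ordinary local density and no anti-FLAG rise. Members have weakly raised anti-FLAG and in part sparse flanks, so this simulation does not bear on how reliable they are. Alternatives were pseudocounts, flank widths, median scaling, limits and filters. Python 3.11.15, numpy 2.4.6, pandas 2.3.3, scipy 1.17.1 and matplotlib 3.10.9 were used.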

Additional observations from a re-analysis of the deposited data

How the results depend on the processing

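Of 64 recomputed values 41 stayed within 1.5 times the count or within the counting interval. Which bins are members depends strongly on the settings. Against 106 members there were 431 with a pseudocount of 0.25 (49 of them shared with the 106), 27 with a pseudocount of 1 (10 shared), 15 with an anti-FLAG limit of 0.25, 58 with 20 or more reads in each wild type and 1 with an anti-GZF1 limit of 1.5. With 5 flanking bins on each side there were 122 (29 shared) and with 20 there were 85 (35 shared). The share reaching an L of 1 in the knockout and in the control was 0.0% with a pseudocount of 1, with an anti-FLAG limit of 0.25 and with input held from 0.25 to 3 times its mean. For H3K27ac it was 12.5% with a pseudocount of 0.25, 7.06% with 20 flanking bins and 0.0% with an anti-FLAG limit of 0.25, and for the input 21.2% with 20 flanking bins. Knockout over control relative to the flanks was 0.938 with a pseudocount of 1, 1.04 with 20 flanking bins and 1.03 with an anti-FLAG limit of 0.25. The share with a gene end within 5 kb was 33.6% and 88.9% with pseudocounts of 0.25 and 1, 45.9% with 5 flanking bins, 26.7% with an anti-FLAG limit of 0.25 and 75.9% with 20 or more reads. The causes were not tested. Keeping members with a local density of 0.3 or more, an alternative added after the data were seen, left 77, with 0.980 for knockout over control and 23.4% reaching 1 in the input. No paired analysis was possible because each group had 1 library and the labels carry no replicate numbers. Depth limits RGM wild type and the input most, at a mean of 8.61 and 3.93 reads per bin.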

Other observations

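The same limits applied to chromosome X, with densities relative to the autosomal mean, found 4 bins of 171032, starting at 41490001, 55860001, 100626001 and 157819001, among 306 with an anti-GZF1 L of 1 or more in both lines. On chromosome Y 3 bins reached that level and 0 met the limits. Of the 93 genes with a member within 5 kb of an end, 5 also had a bin raised with both antibodies within 5 kb. Such a bin was held by 2829 of all 47042 autosomal genes (6.01%), so the 5 are not read as a result.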
